A study of Zea mays with 10 samples.

Results

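In maize endosperm that lacks a working Opaque-2 gene, 33 of the 28580 gene IDs with a deposited expression value were raised strongly and without overlap between the genotypes. They were chosen by their levels in RPKM, which are reads scaled to the length of the gene and the size of the library. As worked out from the values, that size was an adjusted one, described under the processing. The lowest of the 3 opaque-2 libraries had to reach 2 RPKM or more. The highest of the 3 wild-type libraries had to stay under 0.33 of that lowest opaque-2 value. The lack of overlap is thus part of the rule and not particular to these IDs. Of the 18687 IDs with 1 RPKM or more in at least 3 of 6 libraries, 14.4% had every opaque-2 value above every wild-type value. The 33 IDs are 0.115% of all IDs. The same rule turned round, for genes lowered in the mutant, took 100 IDs, or 0.35%.

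The wild type (WT) was the inbred line B73, and the mutant (o2) carried opaque-2 in the B73 background; the labels do not say which opaque-2 allele it was, or how much of the mutant's genome besides that allele differs from B73. Both were grown in a greenhouse, self-pollinated and sampled 15 days after pollination, and the endosperm was dissected from the kernel. There were 3 RNA libraries of each genotype, made from polyadenylated RNA. Replicates have numbers in the labels but no plant, ear or number of kernels, so p-values measure a spread that may be technical. ChIP libraries for the O2 protein were made from both genotypes and are not used here, because no annotation of the peaks' genome build was at hand to link them to gene IDs.

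Opaque-2 (O2), a transcription factor of the bZIP family made in the endosperm, is best known for switching on the genes of alpha zeins, the bulk of the stored protein in a maize kernel. Kernels without it have a soft, chalky endosperm that is poor in zeins and richer in lysine, an amino acid that zeins lack. Genes with more RNA in the mutant are less well described than the zeins, and the level of RNA alone does not say whether O2 acts on such a gene directly. The endosperm itself holds a starchy centre, an aleurone layer, a basal transfer layer that takes up sugars from the mother plant and a small region around the embryo.

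The labels held for the targeted gene. The o2 gene (GRMZM2G015534) stood at 112, 86.1 and 163 RPKM in WT replicates 1 to 3 and at 0.212, 0.173 and 0.254 RPKM in the o2 replicates. Summed over 20 IDs, the alpha zeins, which mark starchy endosperm, held 155714 to 741980 RPKM in the WT libraries and 399.8 to 4496 RPKM in the o2 libraries. The libraries held 49055462 to 62213813 mapped reads, and the median RPKM of all IDs lay between 1.56 and 1.60 in all 6. The levels could be turned back into whole reads, which gives the depth behind each value. In WT libraries the members rested on 2 to 6219 reads each and in o2 libraries on 101 to 44683, and 4 members had under 10 reads in at least 1 WT library.

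The members rose from low levels in WT to moderate levels in o2. Their mean level ran from 0.128 to 6.16 RPKM in WT, with a median over members of 0.518, and from 2.32 to 125 RPKM in o2, with a median of 10.7. The o2 mean was 4.23 to 154 times the WT mean, with a median of 15.1, and 21 members were 10-fold higher or more. Ranked within a library, the median member stood at the 19.6th percentile of all IDs in WT and at the 91.0th in o2. In all 33, the lowest percentile in any o2 library was above the highest in any WT library, which the rule nearly forces.

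**Figure D1:**
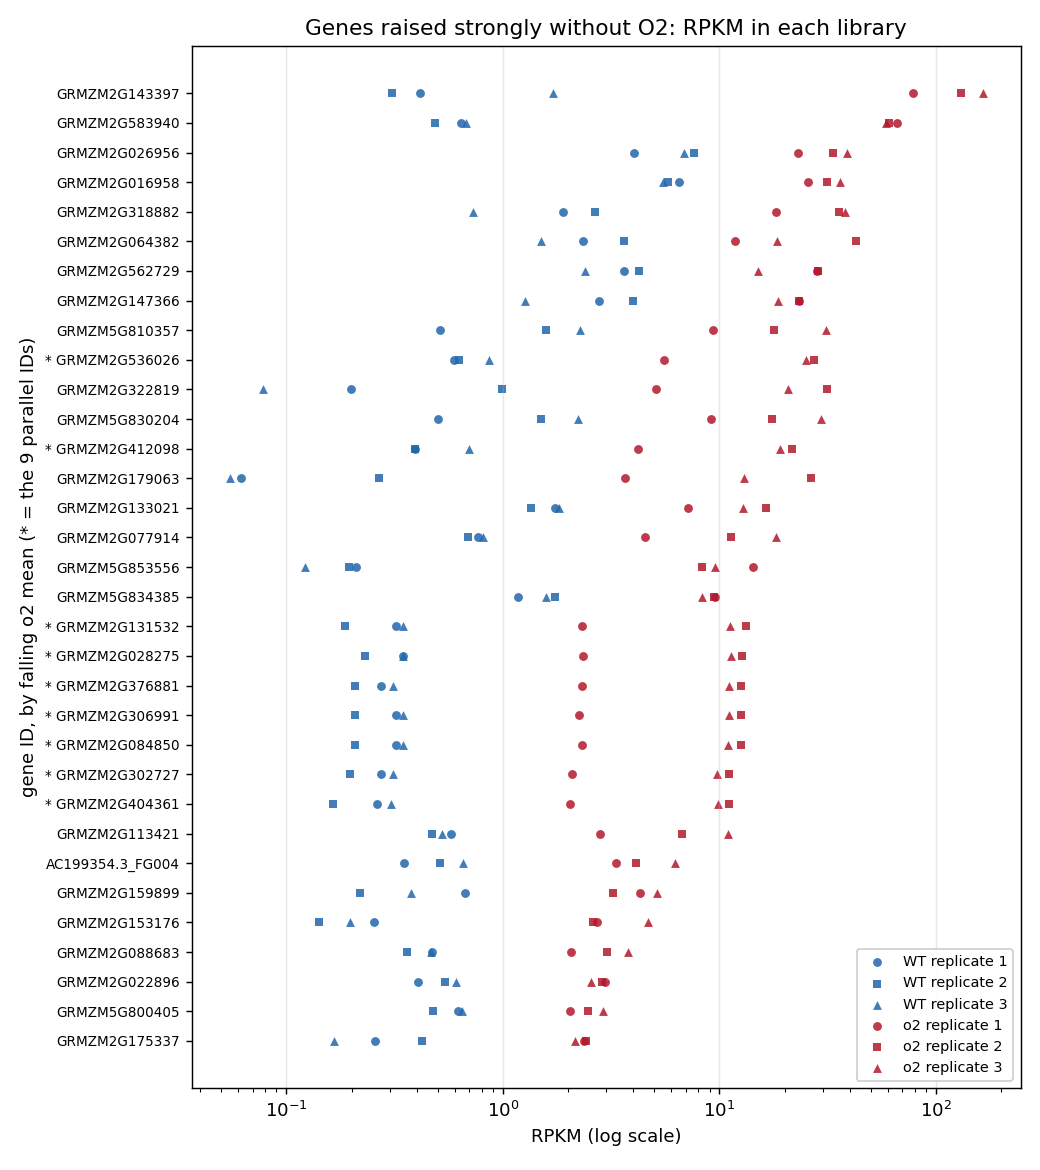
Level of each of the 33 members in RPKM (log axis) in the 3 WT libraries (blue) and the 3 o2 libraries (red), 1 row per gene ID by falling o2 mean, with symbols for the replicate number and asterisks for 9 IDs of parallel profile. WT points lie between 0.0548 and 7.60 RPKM, and o2 replicate 1 (red circles) is the lowest o2 point of 24 members.

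GRMZM2G143397 reached the highest level of all members. It stood at 0.416, 0.308 and 1.71 RPKM in WT and at 78.4, 131 and 165 RPKM in o2. It thus went from a level below or near the median ID to the 99th percentile or above, and WT replicate 3 was the high one of its group. The o2 mean was 125 ± 43.4 RPKM (SD, n = 3) and the WT mean 0.811 ± 0.779 RPKM (SD, n = 3), which is 154-fold and the largest rise of all tested IDs on the log2(RPKM + 0.1) scale, at 7.36 ± 0.58 (SE). Behind these levels were 24 to 85 reads in WT and 8708 to 15405 reads in o2.

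GRMZM2G583940 was second in level and much steadier. It stood at 0.644, 0.487 and 0.678 RPKM in WT and at 66.4, 60.5 and 59.0 RPKM in o2. Its replicates lay close together in both genotypes, and its log2 difference of 6.47 had the smallest standard error of the members, 0.15. The WT side rested on only 8 to 11 reads a library, against 1310 to 1748 in o2, as the length that the RPKM scale implies for this ID is only 138 bases.

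GRMZM5G853556 was a like case at a lower level. It stood at 0.210, 0.194 and 0.122 RPKM in WT and at 14.3, 8.30 and 9.59 RPKM in o2. It was among the 5 members that were highest in o2 replicate 1, and its WT libraries held 2 to 5 reads, the fewest of any member. Its log2 difference was 5.27 ± 0.24 (SE).

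GRMZM2G179063 and GRMZM2G322819 combined large rises with the widest spread in o2. GRMZM2G179063 stood at 0.0615, 0.266 and 0.0548 RPKM in WT and at 3.68, 26.5 and 13.02 RPKM in o2. GRMZM2G322819 stood at 0.198, 0.988 and 0.0778 RPKM in WT and at 5.07, 31.3 and 20.7 RPKM in o2. In both, replicate 2 was the highest library within each genotype. The mean rises were 113-fold and 45.2-fold, with log2 differences of 5.71 ± 0.72 and 5.28 ± 0.86 (SE). These were the only members with a WT value under 0.1 RPKM. Beside them, the 2 IDs of the list for the region around the embryo, neither of them at 0 in every library, summed to 0.677, 13.8 and 0.571 RPKM in WT and to 1.87, 9.75 and 1.32 RPKM in o2, also highest in replicate 2 of each genotype; their part in the result was not tested.

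No member was near 0 in WT by the limit used, all 3 WT values under 0.1 RPKM. None had an exact 0 in any library, and the lowest WT value was 0.0548 RPKM. With a limit of 0.5 RPKM, 12 of the 33 were under it in all 3 WT libraries, and with a limit of 1 RPKM, 22 were. At the other end, 11 members had at least 1 WT library at 1 RPKM or more, and 10 had a WT mean of 1 RPKM or more. The members were therefore low in WT but measured in every library. The counterpart at the other side differed in this respect as a description: of the 100 IDs lowered by the mirrored rule, 9 had all 3 o2 values under 0.1 RPKM, and 1 was listed at 0 in all of them.

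The members of highest WT level came next. GRMZM2G026956 stood at 4.02, 7.60 and 6.86 RPKM in WT and at 23.1, 33.5 and 39.0 RPKM in o2. GRMZM2G016958 stood at 6.54, 5.78 and 5.46 RPKM in WT and at 25.5, 31.5 and 36.2 RPKM in o2. They had the highest WT means of the members and rose 5.18-fold and 5.25-fold. GRMZM2G016958 was also the member of most reads, with 3589 to 6219 in WT and 37439 to 44683 in o2, so that counting error is small there.

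GRMZM2G318882 stood at 1.90, 2.67 and 0.727 RPKM in WT and at 18.3, 35.8 and 38.0 RPKM in o2. GRMZM2G064382 stood at 2.34, 3.63 and 1.498 RPKM in WT and at 11.7, 42.7 and 18.5 RPKM in o2. Of the o2 libraries, replicate 1 was the low one in both, and replicate 2 stood apart on the high side in GRMZM2G064382. GRMZM2G562729 stood at 3.64, 4.24 and 2.40 RPKM in WT and at 28.1, 28.6 and 15.1 RPKM in o2. GRMZM2G147366 stood at 2.78, 3.98 and 1.26 RPKM in WT and at 23.3, 23.3 and 18.6 RPKM in o2. These 4 IDs shared a WT order, with replicate 2 highest and replicate 3 lowest, and the last pair had o2 replicate 3 as the lowest o2 library.

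GRMZM2G133021 and GRMZM5G834385 completed the IDs with a WT mean above 1 RPKM, apart from a pair taken up further on. GRMZM2G133021 stood at 1.74, 1.35 and 1.82 RPKM in WT and at 7.15, 16.4 and 12.8 RPKM in o2. GRMZM5G834385 stood at 1.17, 1.74 and 1.58 RPKM in WT and at 9.53, 9.42 and 8.31 RPKM in o2. Their rises were 7.40-fold and 6.08-fold, the first with a wide spread in o2 and the second with a narrow one.

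The members with an o2 mean under 5 RPKM numbered 7: AC199354.3_FG004, GRMZM2G159899, GRMZM2G153176, GRMZM2G088683, GRMZM2G022896, GRMZM5G800405 and GRMZM2G175337. Their o2 means ran from 2.32 to 4.56 RPKM. The largest rise among them was that of GRMZM2G153176, which stood at 0.254, 0.141 and 0.196 RPKM in WT and at 2.71, 2.60 and 4.69 RPKM in o2, a 16.9-fold difference of the means. The smallest rise of all 33 was that of GRMZM5G800405, at 0.624, 0.478 and 0.649 RPKM in WT and 2.03, 2.47 and 2.89 RPKM in o2, or 4.23-fold.

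**Figure D2:**
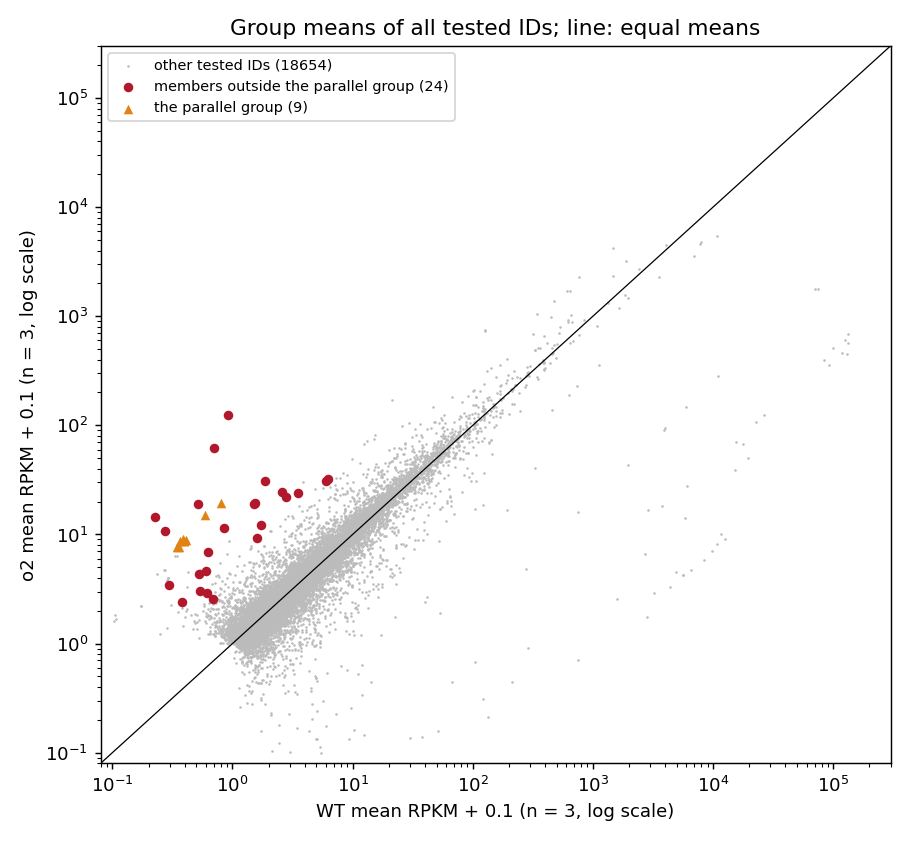
WT mean against o2 mean of every tested ID, as RPKM + 0.1 on log axes (n = 3 libraries each); grey points are the 18654 other tested IDs, red circles the 24 members outside the parallel group and orange triangles the 9 IDs of that group. All members lie above the line of equal means, and the 9 sit together at WT means under 1 RPKM.

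Read from the fit across the whole table, all 33 members passed the filter of 1 RPKM or more in at least 3 of 6 libraries, which the rule makes certain, and all 33 were called higher in o2. Of the 18687 IDs tested with limma, 1.49% were called higher and 3.56% were called in either direction, and 14.4% had every o2 value above every WT value. The same values chose the members, so their count of calls is a description and supports nothing. The members' median log2 difference was 3.69, with a range of 1.90 to 7.36, against 0.05 over all tested IDs. Without o2 replicate 2 the fit called 10 of the 33, without WT replicate 1 it called 16 and without o2 replicate 3 it called 19. Over the whole table the IDs called higher fell from 279 to 14, 40 and 78 of 18687 in the same fits. In each of these fits all 33 members had an unadjusted p under 0.05.

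The rule took the largest rises only in part. The 10 largest log2 differences of the whole table, on the scale of the fit, all belonged to members, but of the 33 largest only 17 did. Of the other 16, 11 had an o2 library under 2 RPKM, and 5 had a WT library at 0.33 or more of the lowest o2 value. The constant added to RPKM on that scale understates rises from very low WT levels. The non-members GRMZM2G109420, AC220927.3_FG006 and GRMZM2G005241, at ranks 16, 20 and 21, had such levels and could rank higher with a smaller constant. The ranking with a smaller constant was not worked out. Just inside the ratio limit was GRMZM2G026956, whose highest WT value was 0.328 of its lowest o2 value, and just outside was GRMZM2G098875 at 0.3303. Just inside the limit on level was GRMZM5G800405, with a lowest o2 value of 2.03 RPKM, and just outside was GRMZM2G034611 at 1.98 RPKM.

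Several members rose in parallel, to the point of following each other from library to library. IDs were called parallel where the SD over the 6 libraries of the difference of their log2(RPKM + 0.1) values was 0.15 or less, which means a nearly constant ratio between them. By this measure 13 of the 33 members, or 39.4%, had a parallel ID among all tested IDs. The share was 48.0% of the 100 mirrored IDs and 95.2% of all tested IDs, most of which hardly vary. Among the 791 tested IDs that vary over the libraries at least as much as the least variable member, it was 45.4%, near the share of the members. Joining parallel members left 24 distinct profiles: 1 of 9 IDs, 1 of 2 and 22 of a single ID.

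**Figure D3:**
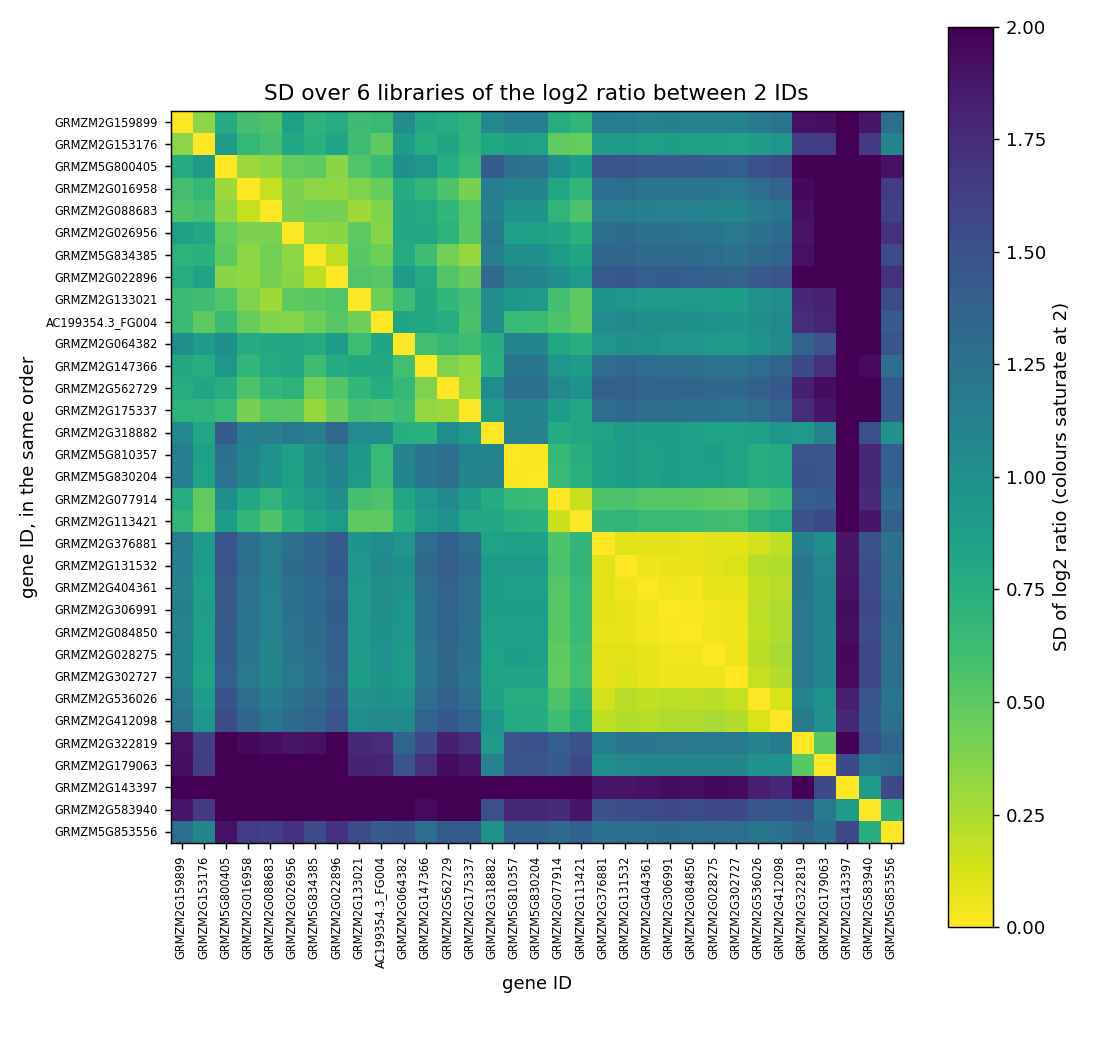
SD over the 6 libraries of the log2 ratio between each pair of the 33 members, with the IDs in the same order on both axes; yellow is 0, a constant ratio, and colours saturate at 2. The block of 9 IDs has pairwise SDs of 0.0226 to 0.265, and the pair GRMZM5G810357 and GRMZM5G830204 has 0.0214.

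The group of 9 comprised GRMZM2G536026, GRMZM2G412098, GRMZM2G306991, GRMZM2G131532, GRMZM2G028275, GRMZM2G084850, GRMZM2G302727, GRMZM2G404361 and GRMZM2G376881. The last 7 formed a tight core with pairwise SDs of 0.0226 to 0.104. In WT replicates 1 to 3 the core lay at 0.263 to 0.344, 0.165 to 0.230 and 0.304 to 0.345 RPKM. In the o2 replicates it lay at 2.05 to 2.34, 11.03 to 13.2 and 9.74 to 11.3 RPKM. The core IDs therefore shared their level as well as their profile, with o2 replicate 1 far below the other o2 libraries. That o2 replicate 1 was still above every WT library is certain from the rule. Reads behind a core value numbered 17 to 29 in WT and 272 to 1519 in o2.

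The other two IDs of the group had higher levels and a like order of the o2 libraries, but in WT their replicate 2 was not the lowest by a clear step, as it was in the core. GRMZM2G536026 stood at 0.595, 0.628 and 0.862 RPKM in WT and at 5.57, 27.2 and 25.2 RPKM in o2. GRMZM2G412098 stood at 0.393, 0.391 and 0.701 RPKM in WT and at 4.20, 21.7 and 19.1 RPKM in o2. GRMZM2G412098 met the limit of 0.15 with GRMZM2G536026, at 0.110, and with no core ID, the nearest being GRMZM2G376881 at 0.191, so it belongs to the group only through GRMZM2G536026. Per length both were higher than the core, but in reads they were lower, with 101 to 438 and 214 to 982 reads in o2, since their implied lengths were 95 and 267 bases against 679 to 769 in the core.

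The core IDs agreed to the last deposited digit in places. GRMZM2G306991 and GRMZM2G084850 had identical RPKM in all 3 WT libraries, and GRMZM2G302727 and GRMZM2G376881 in 2 libraries. Behind these were equal small counts, 27, 19 and 20 reads for the first pair and 23 and 18 in WT replicates 1 and 3 for the second. In o2, with more reads, the first pair differed, at 291, 1456 and 1205 against 302, 1447 and 1199. The implied length was 680 bases for 5 of the 7. These 5 were among 6 IDs taken as equal in length when the worth of 1 read was worked out. Their equal length is thus not a separate observation. RPKM values this close may come from copies that share reads, in which case their separate levels are uncertain. That was not tested, as no sequence of these IDs was used here. Counted as 1, the group and the pair make the 33 members 24 measurements.

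A further 5 IDs outside the members followed the core within an SD of 0.3, chosen after their values were seen: GRMZM2G364315, GRMZM2G106397, GRMZM2G119015, GRMZM2G464537 and AC198766.3_FG003. In o2 replicate 1 they lay at 1.10 to 1.59 RPKM, under the limit of 2 that kept them out. In o2 replicates 2 and 3 they lay at 6.03 to 9.33 and 5.58 to 7.96 RPKM, and in WT none was above 0.304 RPKM. With them the shared shape covered 14 IDs. Of the 5, GRMZM2G119015 and GRMZM2G464537 also met the limit of 0.15 with the core ID GRMZM2G302727, at SDs of 0.146 and 0.149.

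GRMZM5G810357 and GRMZM5G830204 ran closer together than any other pair of members. GRMZM5G810357 stood at 0.514, 1.57 and 2.26 RPKM in WT and at 9.31, 17.8 and 31.1 RPKM in o2. GRMZM5G830204 stood at 0.504, 1.505 and 2.23 RPKM in WT and at 9.13, 17.4 and 29.6 RPKM in o2. Both were lowest in replicate 1 and highest in replicate 3 in each genotype. With implied lengths of 958 and 962 bases and 1701 to 4786 against 1676 to 4574 reads in o2, they too may share reads, which was not tested.

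The remaining parallel IDs lay outside the members. GRMZM2G113421, at 0.575, 0.471 and 0.521 RPKM in WT and 2.81, 6.69 and 10.9 RPKM in o2, had GRMZM2G333045 as its parallel ID at an SD of 0.0541; that ID missed the rule with 1.76 RPKM in o2 replicate 1. GRMZM5G800405 had GRMZM2G104829 at 0.0915, which missed it with 1.83 RPKM in the same library. GRMZM2G077914, at 0.769, 0.687 and 0.806 RPKM in WT and 4.54, 11.3 and 18.3 RPKM in o2, came just outside the limit from GRMZM2G113421, at 0.157. All 3 IDs that make up this set, GRMZM2G113421, GRMZM2G333045 and GRMZM2G077914, were even in WT and had the same order in o2, with replicate 1 lowest and replicate 3 highest.

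Other close neighbours among the members were GRMZM2G088683 with GRMZM2G016958 at 0.174, and GRMZM2G022896 with GRMZM5G834385 at 0.188. For the 3 members of highest o2 mean the nearest non-members were sought. GRMZM2G026956 was nearest to AC194191.3_FG007 at 0.183, GRMZM2G398937 at 0.255 and GRMZM2G465332 at 0.256. GRMZM2G143397 had no close match, with GRMZM2G109420 nearest at 1.94, GRMZM2G106397 at 1.98 and GRMZM2G321561 at 2.00. GRMZM2G583940 had none either, with GRMZM2G109420 at 1.30, GRMZM2G005241 at 1.39 and AC220927.3_FG006 at 1.41. Likeness here is over 6 libraries that fall into the same 2 genotypes for every ID, so a rise of like size in itself makes IDs alike, and the largest rises have few counterparts.

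Within o2 the members varied more between replicates than most IDs did. Their SD over the 3 o2 libraries on the log2(RPKM + 0.1) scale had a median of 0.61, against 0.18 over all tested IDs, and 29 of the 33 were above that 0.18. Over the 3 WT libraries the median SD was 0.28 for the members and 0.25 for all tested IDs, and 24 of the 33 were above that 0.25. The constant of 0.1 RPKM damps spread at low levels, and so more in the members' WT values than in their o2 values. These medians count every ID, so the group of 9 parallel IDs, which may share reads, enters 9 times. Its profile deviated by -1.53, 0.85 and 0.67 in o2 replicates 1 to 3 and by 0.04, -0.28 and 0.24 in WT. It thus widens the gap between the genotypes, and medians by profile were not computed. Replicate 1 was the lowest o2 library for 24 members, replicate 3 for 6 and replicate 2 for 3. Counted by profile, it was 15, 6 and 3 of 24. In 18 members o2 replicate 1 lay under 0.5 of the mean of the other o2 libraries, and in 16 the highest o2 value was 3 times the lowest or more. In 7 members the highest o2 value stayed under 1.5 times the lowest: GRMZM2G583940, GRMZM2G016958, GRMZM2G147366, GRMZM5G834385, GRMZM2G022896, GRMZM5G800405 and GRMZM2G175337.

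**Figure D4:**
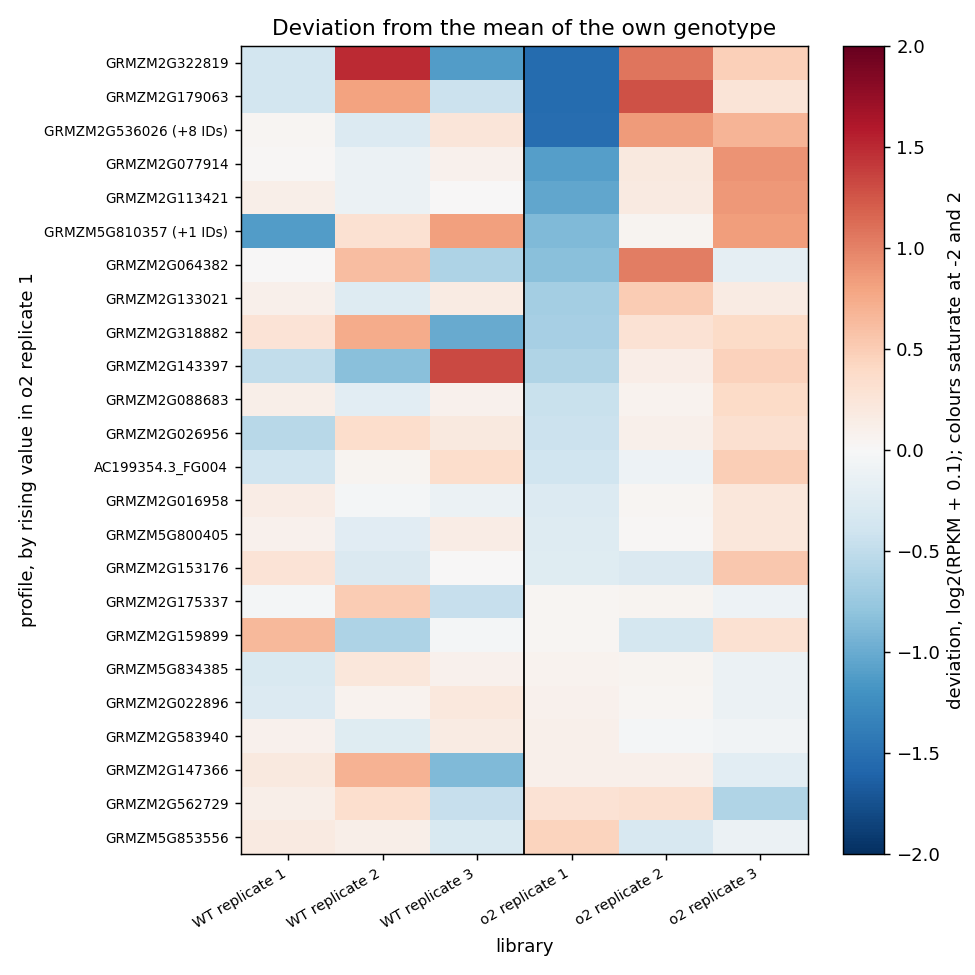
Deviation of each library from the mean of its own genotype on the log2(RPKM + 0.1) scale for the 24 distinct profiles, ordered by rising value in o2 replicate 1; blue is below the mean, red above, and colours saturate at -2 and 2. In o2 replicate 1 the top rows reach -1.54, and 15 of 24 profiles have their lowest o2 value there.

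The shift of o2 replicate 1 was not one of all genes. The members' median deviation from the o2 mean was -0.67 in replicate 1, 0.17 in replicate 2 and 0.47 in replicate 3, or -0.41, 0.09 and 0.28 with each profile counted once. Over all tested IDs it was 0.01, -0.01 and 0.01. The members' levels summed to 34.2, 42.6 and 37.0 RPKM in WT and to 386, 687 and 690 RPKM in o2. The lowest library sum in o2 was far above the highest in WT, which the rule makes certain.

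Markers of other cell types varied among these libraries too. The embryo list, with 3 tested IDs and none called, summed to 441, 316 and 675 RPKM in WT and to 369, 468 and 919 RPKM in o2, with its lowest o2 value in replicate 1. The basal transfer layer list, with 7 tested IDs and none called, summed to 188, 79.0 and 5.27 RPKM in WT and to 55.3, 174 and 25.5 RPKM in o2, with its lowest o2 value in replicate 3. No ID of either list was at 0 in every library. The aleurone and anthocyanin list, with 1 of 6 tested IDs called lower and none higher, held 32.4 to 46.8 RPKM in WT and 37.3 to 39.7 in o2. Their part in the members' values was not tested, and in whole endosperm more cells of a type and more RNA per cell cannot be told apart.

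The members are largely without annotation in the reference used here. Of the 33, 8 (24.2%) were paired with a gene of the reference table, against 44.3% of all IDs, and none of the 8 had a name beyond a locus number. No role can therefore be given for any member. None could match the gene lists, which work by symbol. In those lists 1 of 25 tested heat shock and other stress genes, 1 of 20 starch and sucrose genes and 2 of 72 genes of transcription factor families were called higher in o2, against the 1.49% of all tested IDs given above; 19 of 20 alpha zeins were called lower.

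The members were also short. The length in bases that the RPKM scale implies had a median of 954 over the members, with a range of 95 to 9793, against 2615 over all tested IDs. Of the members, 20 were shorter than 1000 bases, against 22.7% of the tested IDs, and with each profile counted once it was 11 of 24, with a median of 1260. The called IDs that were higher in o2 but not members had a median of 1931, and the 100 mirrored IDs had 1122. Length enters RPKM as a divisor, so in a short ID each read weighs more against the limit of 2 RPKM. It also sets how few reads a low WT value can rest on, as the 2 to 5 reads of GRMZM5G853556 show.

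In the gene order of the reference, 2 of the 8 placed members lay on chromosome 7, which holds o2, namely GRMZM2G159899 at 263 genes and GRMZM2G016958 at 328 genes from it. Of all placed tested IDs 8.10% lay on that chromosome, and of the mirrored IDs 17.5% did. No placed member was within 100 genes of o2, and none was within 5 genes of another. Within 20 genes of the 8 placed members lay 50 other tested IDs, of which 2 were called higher and none lower, and their median log2 difference was 0.08. Both called neighbours were near GRMZM2G179063: GRMZM2G101105, 10 genes away, and GRMZM2G163437, 12 genes away, with log2 differences of 0.94 and 1.06. Around the other 7 placed members, no tested ID within that distance was called apart from members.

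A stretch of chromosome 8 looked different. GRMZM2G113421 and GRMZM2G077914, whose profiles ran nearly parallel, lay 18 genes apart there. Between them, GRMZM2G502350 stood at 0.916, 0.415 and 0.505 RPKM in WT and at 1.39, 2.40 and 4.88 RPKM in o2. GRMZM2G064750, next to GRMZM2G077914 at a distance of 1 gene, stood at 0.980, 0.609 and 0.840 RPKM in WT and at 1.28, 1.88 and 3.81 RPKM in o2. Both neighbours had every o2 value above every WT value, as did 14.4% of all tested IDs, and the same order of the o2 libraries as the members. Their log2 differences were 1.96 and 1.30, but neither was called with limma. Of the other 3 tested IDs within 20 genes of GRMZM2G113421, GRMZM2G333022 had a log2 difference of 0.61, GRMZM2G377250 of 0.24 and GRMZM2G366953 of -0.19. All 3 had that order of the o2 libraries too, but o2 replicate 1 of each lay below its highest WT value. GRMZM2G094050, 13 genes from GRMZM2G077914, had a log2 difference of -0.22 and was lowest in o2 replicate 3 among the o2 libraries. Overlapping or neighbouring gene models may share reads, which was not tested. With 25 of the 33 members unplaced, positions are known for too few to describe the whole set.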

How the data were processed

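RNA levels were deposited by the authors as RPKM in 1 column per library; of the tools in the submitters' processing notes, which give no roles, TopHat2 2.0.9 is an aligner, edgeR 3.2.4 a package for counts and bedtools 2.17.0 a tool for intervals, and the build was B73 RefGen_v3. A second deposited table gives counts of reads by mapping class. The sources used here do not give which reads were counted, or whether by strand.

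The members and gene lists were chosen with earlier results of these data known. IDs with 1 RPKM or more in at least 3 of 6 libraries were fitted with limma 3.58.1 in R 4.3.3 on log2(RPKM + 0.1), which understates changes of low IDs (lmFit, eBayes with trend, genotype as the only term, Benjamini-Hochberg adjusted p under 0.05). Fits without a library kept the IDs tested with all 6. The script was tested on simulated data. Any of the 33 members could be named, beside o2, the IDs at the limits, the nearest IDs and, chosen after their values were seen, IDs that follow the core group, neighbours in gene order and IDs near 0 in WT.

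In each library RPKM values were whole multiples of the worth of 1 read over a length. That worth was found from 6 IDs of like profile that shared exact WT values and were taken as equal in length. Whole reads and the smallest fitting lengths were then recovered for 100.0% of IDs. The misfit allowed was 0.02 reads plus a small part of the read count. In IDs with very many reads the fit is therefore a weak check of the length. The recovery of reads, the edgeR 4.0.16 quasi-likelihood fit on those reads and leaving out replicate 3 of both genotypes were chosen after seeing the data. Recovered reads summed to 79760256 to 230317054 per library, 1.44 to 1.47 times the mapped reads in o2 and 2.41 to 4.70 times in WT, so some reads entered more than 1 ID or place. The library size by which reads had been divided was worked out from the worth of 1 read. In every library it was about 1.15 times a TMM-adjusted size, which is the recovered reads times a factor from edgeR. It was 0.371 to 1.06 times the recovered reads in WT and 1.92 to 2.12 times in o2. Levels and folds between the genotypes therefore rest on that adjustment.

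Names and gene order came from RefSeq genes of Zm-B73-REFERENCE-NAM-5.0, which paired 12658 IDs and whose coordinates are not used. psei1 and GRMZM2G052546 were taken off lists they matched by symbol only. No defence, green tissue or embryo-surrounding list ID was called higher: 3, 0 and 0 of their IDs were tested. No sequences were used here, so the intended description of promoter motifs was not made, and peaks were not used.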

Additional observations from a re-analysis of the deposited data

How the results depend on the processing

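All 33 members kept a higher level in o2 under every alternative run, and their log2 differences reversed in none, which the rule nearly forces. The count of IDs called in all was 666 with the settings reported; it was 98 to 777 with 1 library left out, 1051 with no filter, 299 without replicate 3 of both genotypes and 657 with edgeR on recovered reads. Members called numbered 10 to 33 with 1 library left out, 20 without replicate 3 of both genotypes, 32 with edgeR, which missed GRMZM2G322819, and 24 of 24 with 1 ID per profile. With 1 library left out fewer samples enter the fit; without o2 replicate 2, WT replicate 1 or o2 replicate 3 the members called were 10, 16 and 19, among 14, 40 and 78 IDs called higher in all, against 279 with all 6 libraries. The replicate block gave 340 IDs and all 33 members; deviations of same-numbered libraries had r of -0.02, 0.06 and 0.32 across tested IDs and of 0.14, 0.16 and 0.48 across the members, WT replicate 1 correlated best with o2 replicate 2, and the numbers were not taken to pair the samples, by the values over all tested IDs. The rule itself took 58 IDs at an o2 minimum of 1 RPKM, 15 at 5 RPKM, 72 at a ratio of 0.5, 214 by group means, 37 to 100 with 1 library left out and 123 without replicate 3 of both genotypes; each looser setting takes more IDs by construction. Members near 0 in WT numbered 12 under 0.5 RPKM and 0 to 1 with a WT library left out. Members with a parallel ID ranged from 11 to 19 over SD limits of 0.1 and 0.2 and other pseudocounts. Few WT reads limit the precision of the folds: 4 members had under 10 in a library.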

Other observations

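Some of the largest rises outside the 33 were those nearest to 0 in WT. Lowering the o2 minimum from 2 to 1 RPKM added 25 IDs, and 3 of the resulting 58 had all WT values under 0.1 RPKM. GRMZM2G109420 stood at 0.00281, 0.00649 and 0.00407 RPKM in WT, or 2, 5 and 2 reads, and at 1.57, 1.95 and 1.68 RPKM in o2, or 1723, 1898 and 1554 reads. GRMZM2G005241 had 1, 0 and 0 reads in WT and 253, 273 and 208 in o2. AC220927.3_FG006 had 0, 2 and 0 reads in WT and 193, 176 and 220 in o2. Unlike most members, these IDs differed little among the o2 libraries. They were chosen after their values were seen.

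Other large rises were set by the WT libraries. GRMZM5G879825 was listed at 0, 0.178 and 4.67 RPKM in WT and stood at 5.67, 6.21 and 7.78 RPKM in o2. GRMZM2G702274 was listed at 0, 0.123 and 3.74 RPKM in WT and stood at 4.83, 5.16 and 6.38 RPKM in o2. GRMZM2G008882 stood at 0.0528, 0.536 and 10.0 RPKM in WT and at 11.1, 12.9 and 13.2 RPKM in o2. In all 3, WT replicate 3 came near the o2 libraries while the other WT libraries were far below. Their log2 differences of 3.64 to 3.69 were not called, and the cause was not tested. GRMZM2G143397, the member of highest level, was also highest in replicate 3 among the WT libraries.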
